A study of Mus musculus with 2 samples.

Results

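The 35 genes described here encode proteins of S phase and DNA replication, 35 of the 32285 genes listed in both count matrices. They were chosen by name, as a list that covers the helicase that opens the DNA, its loaders, the polymerases and their clamp, the enzymes of nucleotide supply, histone and chromatin factors, the cyclins that start S phase, and checkpoint and repair proteins. All 35 were found once in each matrix. They were measured in single cells from the bone marrow of 1 wild-type male C57BL/6J mouse aged 3 months. The marrow was cultured in medium depleted of hormones for 48 h with M-CSF, a macrophage growth factor, at 5 ng/mL. Fresh medium then brought M-CSF to 100 ng/mL and added RANKL, the signal for osteoclast formation, at 30 ng/mL and human TNF at 10 ng/mL, and adherent cells were taken 24 h later. One culture received 1 nM 5α-dihydrotestosterone (DHT), an androgen, in both media, and the other received the same volume of ethanol, its vehicle. Each culture gave 1 library, made with the 10x Genomics 3′ chemistry, and both carry the same batch label. Cells of a library are not replicates, so no test between DHT and vehicle was made, and the intervals below, at 95%, cover counting error only.

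DNA replication begins when the MCM complex, a ring of related helicase subunits, is loaded onto origins by Cdc6 and Cdt1. Cyclin E and its kinase then start S phase, Cdc45 and the GINS complex switch the helicase on, and polymerases held by the Pcna ring copy both strands. Many of these genes are turned on together at the end of G1 by E2F transcription factors, while genes of G2 and mitosis come later under other regulators. In marrow, myeloid progenitors and immature neutrophils divide, mature neutrophils do not, and macrophage and osteoclast precursors divide in response to M-CSF before osteoclasts fuse and leave the cycle.

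The following 6 promoters are shown as examples chosen after the values and the motif matches were seen. Dtl, Mcm6 and Cdc6 hold a match and were above vehicle in macrophages below, and Rfc4, Rrm2 and Tyms hold none and were below it. The choice is no evidence of a link, since Clspn, with a match, was also among the lowest members there. Each sequence is the 150 bases before the annotated start, on the gene's own strand, from RefSeq with build GRCm38.p6. Starts can differ between annotations: GENCODE M21, used for gene positions, starts Cdc6 at 98907801, so the Cdc6 stretch lies inside that gene model. Capitals mark any of 4 E2F-type motifs, TTTCGCGC, TTTGGCGC, TTTCCCGC and TTTGCCGC, on either strand.
Dtl (chr1:191575545-191575694, minus strand): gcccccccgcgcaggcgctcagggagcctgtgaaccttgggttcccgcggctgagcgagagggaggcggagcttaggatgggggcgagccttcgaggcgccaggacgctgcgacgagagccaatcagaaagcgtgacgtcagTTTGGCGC
Mcm6 (chr1:128359706-128359855, minus strand): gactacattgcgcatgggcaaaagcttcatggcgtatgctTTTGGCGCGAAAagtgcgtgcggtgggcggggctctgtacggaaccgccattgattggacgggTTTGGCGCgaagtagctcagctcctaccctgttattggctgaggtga
Cdc6 (chr11:98908001-98908150, plus strand): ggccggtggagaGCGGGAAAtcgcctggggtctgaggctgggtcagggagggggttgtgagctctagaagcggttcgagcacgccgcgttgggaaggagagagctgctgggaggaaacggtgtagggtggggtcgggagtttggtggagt
Rfc4 (chr16:23127731-23127880, minus strand): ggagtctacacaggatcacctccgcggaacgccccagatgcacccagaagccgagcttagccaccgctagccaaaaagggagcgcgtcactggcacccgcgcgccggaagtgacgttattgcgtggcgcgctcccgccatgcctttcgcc
Rrm2 (chr12:24708104-24708253, plus strand): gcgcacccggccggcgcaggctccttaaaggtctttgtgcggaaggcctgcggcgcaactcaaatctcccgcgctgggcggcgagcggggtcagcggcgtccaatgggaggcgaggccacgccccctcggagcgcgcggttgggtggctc
Tyms (chr5:30073626-30073775, minus strand): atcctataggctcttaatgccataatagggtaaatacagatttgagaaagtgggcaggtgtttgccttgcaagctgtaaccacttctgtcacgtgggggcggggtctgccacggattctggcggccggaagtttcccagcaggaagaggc
The Mcm6 stretch held 3 matches, of which the first pair overlapped on opposite strands, the Dtl match ended at the base before the start, and the Cdc6 match lay on the opposite strand. In windows from 250 bases before to 50 bases after the start, a match was found in 11 of the 28 members with a promoter in the table (39.3%). The same motifs were found for 37.5% of 48 other replication genes, 6% of 50 G2 and M phase genes and 2.60% of all 27025 genes in it. The letters CCAAT, read on both strands, were found in 18 of the 28 members and in 41.1% of all genes. A match is a description of the sequence, and the absence of these letters says nothing on E2F binding.

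Depth came to 319430510 unique molecular identifiers (UMIs) in the DHT library over 10798 barcodes and 453802415 in the vehicle library over 10630, with 33 barcodes in both, 19 of them among the cells kept. After filtering, 7708 and 8572 cells remained, with medians of 30149 and 50815 UMIs. They fell into 14 clusters, built without the members, other cell cycle genes, histone genes or interferon genes, and were named from markers as "X-like". The groups compared, in DHT and vehicle cells, were C1q macrophage-like (533 and 526), osteoclast-like (1294 and 2561), granulocyte-monocyte progenitor-like (589 and 514), monocyte-like (589 and 428) and immature neutrophil-like cells (1001 and 558). The label given by the submitters to both libraries was osteoclast precursors, and osteoclast-like cells had Acp5 at 817 and 716 CPM and Ctsk at 668 and 607 CPM. A further cluster of 1150 and 2412 cells, led by Pf4, Flrt2, Igf1 and Gpnmb, had macrophage and osteoclast markers and was left without a name. Libraries differed in depth within the macrophage-like group, with medians of 32374 UMIs with DHT and 51316 with vehicle. That group also differed in markers: the summed level of its 8 own markers was 2954 CPM with DHT and 1812 CPM with vehicle, that of 6 monocyte markers 510.5 and 296 CPM, and that of 7 immature neutrophil markers 442 and 121 CPM. All of these markers had at least 1 UMI in both libraries. Markers of mature neutrophils summed to 1108 and 1163 CPM, and those of B cells to 13.6 and 7.39 CPM. Of 6 T or NK cell markers, 2 and 3 were above 0 in it, and of 6 erythroid markers 2 and 2. The part of depth and of these markers in the results below was not tested.

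The first question was how the level of the 35 genes in each group differed between DHT and vehicle. Levels are UMIs summed over the cells of a group scaled to 1000000 UMIs of that group (CPM), and in each pair below the DHT value comes first. Summed over the 35 genes, the level was 3323 and 3137 CPM in progenitor-like, 2234 and 2158 CPM in monocyte-like and 2199 and 2298 CPM in macrophage-like cells. It was 1876 and 1945 CPM in osteoclast-like and 1643 and 1778 CPM in immature neutrophil-like cells, against 274 and 265 CPM in mature neutrophil-like cells, which do not divide. The sums of both libraries were thus close in every group. Progenitor-like cells were the highest and immature neutrophil-like cells the lowest of the 5 in both libraries, and only macrophage-like and monocyte-like cells changed places.

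Genes with 20 CPM or more in 1 or both libraries were compared, and a gene past 1.5-fold between them is called higher or lower below. In macrophage-like cells 32 of the 35 members reached 20 CPM, and 0 were higher and 1, Tyms, was lower, where 3.88% and 2.57% of all genes were higher and lower. In osteoclast-like cells 0 of 30 members were higher and 0 lower (all genes: 0.839% and 0.0311%), and in progenitor-like cells 0 of 34 and 0 of 34 (1.23% and 0.25%). Monocyte-like cells had 0 and 0 of 32 (2.07% and 0.289%), and immature neutrophil-like cells 0 and 0 of 28 (2.24% and 0.901%). These counts lay near the background in all 5 groups. The median log2 ratio of the members that reached 20 CPM was −0.05 in macrophage-like, −0.08 in osteoclast-like, 0.10 in progenitor-like, 0.02 in monocyte-like and −0.11 in immature neutrophil-like cells, where that of all such genes was 0.01, 0.06, 0.05, 0.04 and 0.05. Immature neutrophil-like cells joined a dividing and a non-dividing cluster, of which the dividing one held 41.2% of the cells with DHT and 44.6% with vehicle. Within the dividing cluster the members' median was −0.01, their summed level had a ratio of 1.00 (0.985 to 1.02), against 0.924 for both clusters together, and 16 of 32 members were above 1. Of all genes at 20 CPM in the dividing cluster, 62.4% were above 1, with a median of 0.07. Rfc4, Tyms and Ccne1 lay at −0.25, −0.17 and −0.28 in it. The sign of a median near 0 was not stable: over 15 alternatives the macrophage-like median ran from −0.31 to 0.05, above 0 in 4, and the monocyte-like median was below 0 in 11. The members' spread was widest in macrophage-like cells, from −0.93 (Tyms) to 0.33 (Cdt1), and narrowest in immature neutrophil-like cells, from −0.37 (Rfc4) to 0.10 (Uhrf1).

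**Figure D1:**
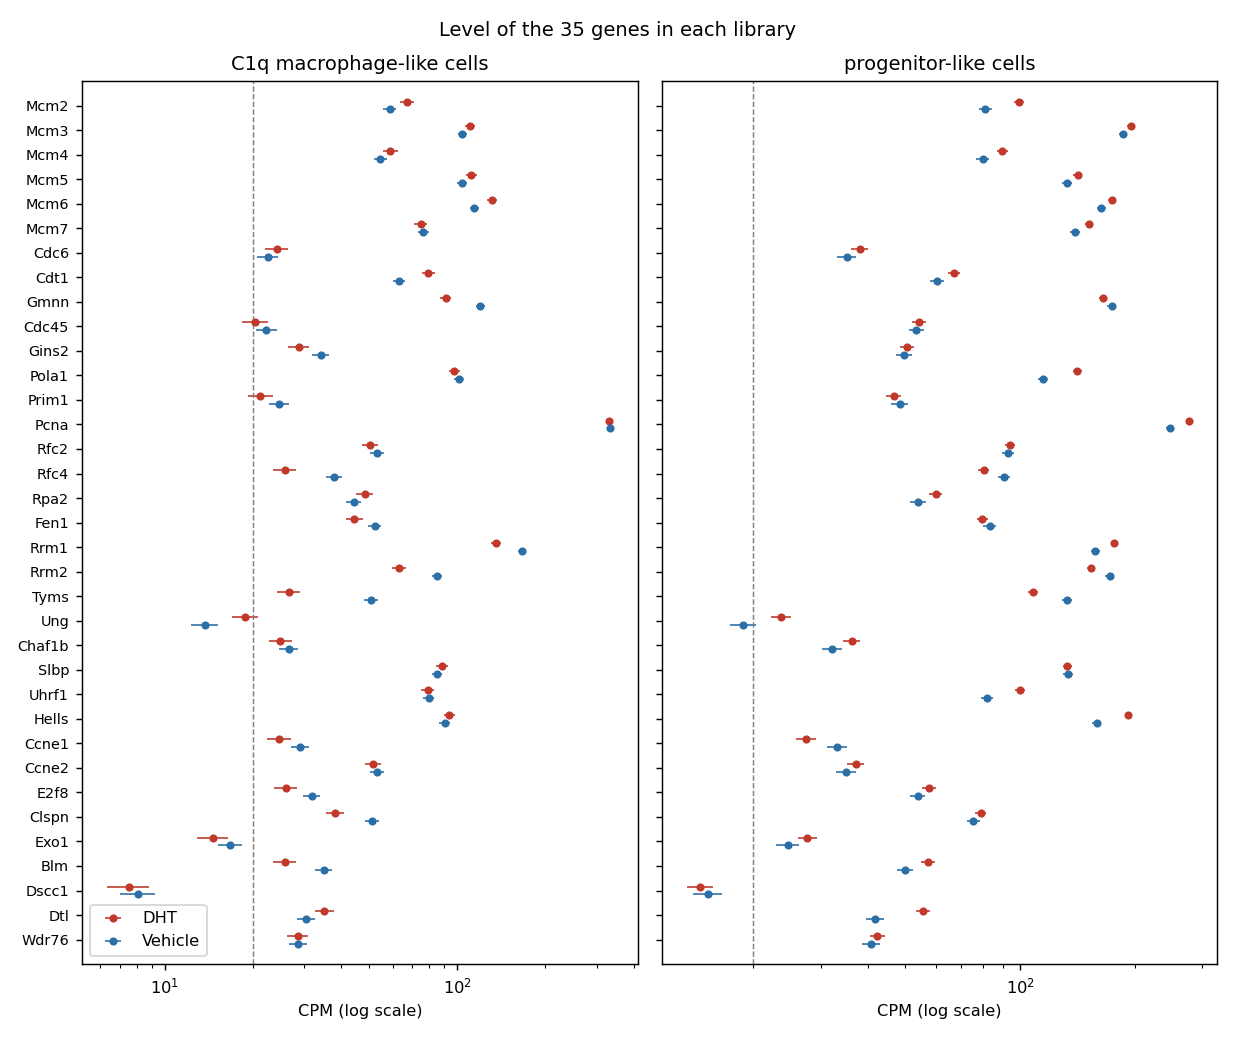
Level in CPM, on a log axis, of each of the 35 genes in macrophage-like and progenitor-like cells, with DHT in red and vehicle in blue; points are the libraries' summed levels and bars exact Poisson intervals at 95%. Tyms in macrophage-like cells, at 26.5 and 50.6 CPM, is the widest gap among genes right of the dashed line at 20 CPM.

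The MCM helicase subunits were at or slightly above vehicle in macrophage-like cells. Mcm2 was at 67.1 CPM with DHT and 58.7 CPM with vehicle, a ratio of 1.14 (1.06 to 1.23). Mcm6 was at 131 and 114 CPM, a ratio of 1.15 (1.09 to 1.21). Mcm3, Mcm4 and Mcm5 lay at log2 ratios of 0.09, 0.11 and 0.11, and Mcm7, with 75 and 76.5 CPM, at −0.03. So 5 of these 6 subunits of 1 complex had a ratio above 1, as did 52.1% of all genes at 20 CPM, and all 6 stayed under the 1.5-fold limit. In progenitor-like cells all 6 were above 1 (all genes: 61.2%), from 0.07 for Mcm3 (195 and 186 CPM) to 0.29 for Mcm2 (99.1 and 81 CPM). In osteoclast-like cells Mcm5 alone was above 1 (all genes: 67.5%), at 106 and 98.2 CPM, and Mcm4 was the lowest at 45.3 and 51 CPM. Summed over the 6, the level was 554 and 512 CPM in macrophage-like, 493 and 500.0 CPM in osteoclast-like, 850.2 and 781 CPM in progenitor-like, 524 and 510.3 CPM in monocyte-like and 336 and 366 CPM in immature neutrophil-like cells.

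The loaders of the helicase split in macrophage-like cells. Cdt1, which brings MCM rings to origins, was at 79.5 CPM with DHT and 63.1 CPM with vehicle, a ratio of 1.26 (1.18 to 1.35), the highest ratio of the members there at 20 CPM. Gmnn encodes geminin, the protein that binds and blocks Cdt1, and it was at 91.1 and 119.8 CPM, a ratio of 0.760 (0.717 to 0.806). The pair also stood apart in osteoclast-like cells, with Cdt1 at 95.9 and 88.9 CPM and Gmnn at 83.9 and 99.5 CPM, and in progenitor-like cells, at 67.1 and 60.6 CPM and 164 and 173 CPM. In immature neutrophil-like cells both were below vehicle, Cdt1 at 26.4 and 33.3 CPM and Gmnn at 73.7 and 92.9 CPM. In their dividing cluster alone Cdt1 was at 39.5 and 45.6 CPM and Gmnn at 115 and 133 CPM. Cdc6, the other loader, was at 24.1 and 22.5 CPM in macrophage-like and 22.8 and 17.8 CPM in monocyte-like cells, where a ratio of 1.28 (1.15 to 1.44) was next to the highest. Cdc45 and Gins2, parts of the active helicase, were at 20.4 and 22.2 CPM and 28.7 and 34.1 CPM in macrophage-like cells.

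Pcna, the ring that holds polymerases on DNA, gave the most UMIs of the 35 genes in each of the 5 groups. Its level was 331 CPM with DHT and 332 CPM with vehicle in macrophage-like cells, a ratio of 0.997 (0.965 to 1.03), and 183 and 179.9 CPM, 277 and 246 CPM, 215 and 205 CPM and 149 and 148 CPM in osteoclast-like, progenitor-like, monocyte-like and immature neutrophil-like cells. Both libraries thus had the same Pcna level in macrophage-like cells within counting error. Rfc4, a subunit of the loader that opens this ring (chr16:23113943-23127737), was at 25.7 and 37.8 CPM in macrophage-like cells, a ratio of 0.680 (0.609 to 0.758). It was below vehicle in the other 4 groups too, with log2 ratios of −0.26, −0.18, −0.06 and −0.37, and was the lowest member of immature neutrophil-like cells at 36.9 and 47.5 CPM. Rfc2, of the same loader, differed little, with 50.4 and 53.2 CPM in macrophage-like cells. Pola1 and Prim1, of the polymerase that lays down primers, were at log2 ratios of −0.05 and −0.21 there, and Pola1 was at 141 and 115 CPM in progenitor-like cells. Rpa2, which coats single strands, and Fen1, which trims flaps between new fragments, were at 0.13 and −0.23 in macrophage-like cells. Rfc4, Rfc2 and Fen1 each overlap a gene on the opposite strand, and the use of strand in the counting is not given in the sources used here.

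Tyms, the enzyme that makes thymidylate (chr5:30058202-30073617), was the member with the lowest ratio in macrophage-like cells. It was at 26.5 CPM with DHT and 50.6 CPM with vehicle, a ratio of 0.524 (0.472 to 0.580). After thinning to equal depth, 10.1% of DHT and 18.5% of vehicle macrophage-like cells had a Tyms UMI. In the other groups it was at 38.3 and 45.4 CPM (osteoclast-like), 108 and 132 CPM (progenitor-like), 77.7 and 87.3 CPM (monocyte-like) and 60.8 and 74.2 CPM (immature neutrophil-like), below vehicle in each. All of these comparisons rest on the same pair of libraries. Over 15 alternative settings the macrophage log2 ratio of Tyms ran from −1.17 to −0.40, and it missed 1.5-fold in 7 of them. Each of these 7 drew the cells of the group differently, while the limits of 5 and 50 CPM, also among the 15, cannot move a single gene's ratio. Rrm1 and Rrm2, the subunits of ribonucleotide reductase, were at 136 and 166 CPM and 63.1 and 85.2 CPM in macrophage-like cells, with a ratio of 0.741 (0.691 to 0.795) for Rrm2. In osteoclast-like cells Rrm1 was the highest member by ratio, at 163 and 145 CPM, while Rrm2 was at 57.7 and 60.7 CPM. Ung, which removes uracil from DNA, was under 20 CPM in macrophage-like cells, at 18.8 and 13.7 CPM, and reached it in progenitor-like cells, at 23.6 and 18.8 CPM.

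The chromatin genes differed little in macrophage-like cells and more in progenitor-like and monocyte-like cells. Uhrf1, which carries DNA methylation to the new strand, was at 79.2 and 79.8 CPM in macrophage-like and 100.0 and 81.7 CPM in progenitor-like cells. Hells, a remodelling helicase, was at 115 and 88.7 CPM in monocyte-like cells, a ratio of 1.30 (1.24 to 1.37), the highest there, and at 192 and 159 CPM in progenitor-like cells. Chaf1b, a subunit of the factor that places histones on new DNA, was the lowest member of monocyte-like cells at 24 and 27.9 CPM. Slbp, which binds the stem-loop of replication-dependent histone mRNAs, was at 88.3 and 85.3 CPM, 60.2 and 59.3 CPM, 133 and 133 CPM, 101 and 99.6 CPM and 99 and 105 CPM in the 5 groups in the order above. Its level was close in both libraries throughout. It was also the member with the most UMIs in mature neutrophil-like cells (63.3 and 50.3 CPM).

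The cyclins of the entry into S phase were below or level with vehicle in most groups. Ccne1 was at 24.6 and 29 CPM in macrophage-like cells and had a ratio below 1 in all 5 groups, down to −0.39 at 13.4 and 17.5 CPM, under 20 CPM, in immature neutrophil-like cells. Ccne2 was at 51.5 and 53.1 CPM in macrophage-like cells and 27 and 34 CPM in immature neutrophil-like cells. Of the progenitor-like clusters, the one with the fewest cells (225 and 143) had Ccne2 at 29.9 and 17.8 CPM. E2f8, an E2F family repressor of these same genes, was at 25.9 and 31.7 CPM in macrophage-like and 19.4 and 21.8 CPM in osteoclast-like cells.

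Among checkpoint and repair genes, Clspn, the claspin that relays replication stress to the checkpoint kinase, was the lowest member of osteoclast-like cells at 36.1 and 45.6 CPM, a ratio of 0.792 (0.758 to 0.827). In macrophage-like cells it was at 38.1 and 51 CPM. Blm, a helicase of recombination, was at 25.7 and 34.9 CPM in macrophage-like cells, a ratio of 0.736 (0.659 to 0.822), but above vehicle in progenitor-like (57.4 and 49.8 CPM) and monocyte-like cells (37.1 and 31.9 CPM). Dtl, the adaptor that marks Cdt1 for destruction during S phase, was the highest member of progenitor-like cells at 55.7 and 41.7 CPM, a ratio of 1.33 (1.25 to 1.43), and was at 35.1 and 30.5 CPM in macrophage-like cells. Wdr76 was at 28.5 and 28.5 CPM there. Exo1 and Dscc1 were under 20 CPM in macrophage-like, osteoclast-like, monocyte-like and immature neutrophil-like cells. Over the 5 groups, 6 members had a ratio below 1 in every group (Ccne1, Gmnn, Prim1, Rfc4, Rrm2 and Tyms) and 0 had a ratio above 1 in every group, at any level. Rfc4 and Tyms kept that direction in all 5 groups under all 15 alternative settings, of which the limits of 5 and 50 CPM cannot change a ratio. Rrm2 turned above 1 in 6 of the 15 in osteoclast-like, 3 in progenitor-like and 2 in macrophage-like cells, Gmnn in 1 in progenitor-like cells, and Ccne1 and Prim1 under some settings in macrophage-like and progenitor-like cells. The share of all genes below 1 in every group was not computed, and all groups rest on the same pair of libraries, so the count of 6 has no background. In single groups 52.1% (macrophage-like) to 67.5% (osteoclast-like) of all genes at 20 CPM were above 1. Some ratios of the 6 members were near 1, with log2 ratios of −0.02 for Gmnn and −0.06 for Rfc4 in monocyte-like cells.

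**Figure D2:**
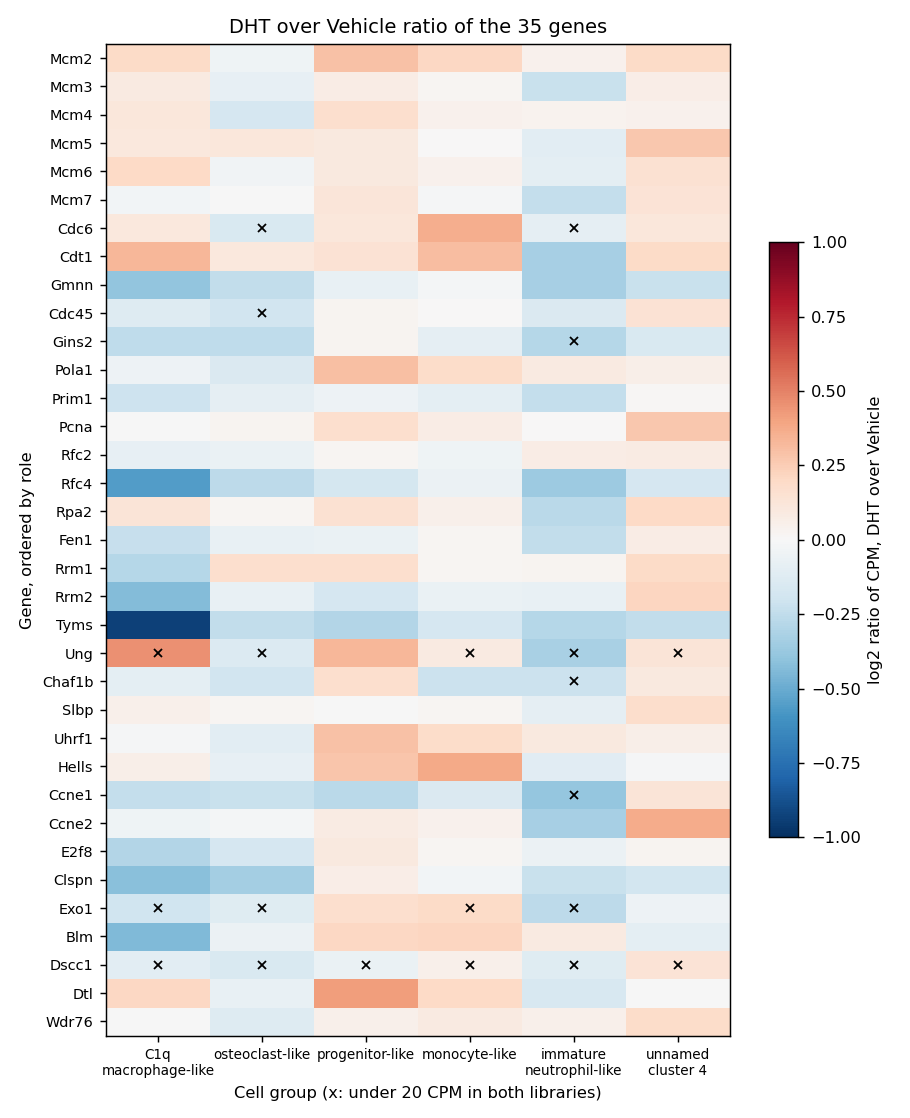
The log2 ratio of CPM, DHT over vehicle, of each of the 35 genes (rows, by role) in the 5 named groups and the unnamed cluster 4 (columns), from −1 (blue) to 1 (red); crosses mark genes under 20 CPM in both libraries. The Tyms row is blue in all columns, deepest at −0.93 in macrophage-like cells.

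The second question was which share of cells held transcripts of the 35 genes above the background of non-dividing cells. Each cell was thinned to 5000 UMIs, and a cell with at least 6 UMIs over the 35 genes was called S phase-high, a count that at most 1% of mature neutrophil-like cells of both libraries together reached. Cells under 5000 UMIs were left out, 20 and 3 of the macrophage-like and 113 and 180 of the mature neutrophil-like cells. In macrophage-like cells 51.9% with DHT and 66.5% with vehicle were S phase-high, a difference of −14.7 percentage points (−20.5 to −8.71). This was the widest difference of the 5 groups and the only one with an interval that left out 0. Osteoclast-like cells had 65.2% with DHT and 62.3% with vehicle, a difference of 2.91 percentage points (−0.329 to 6.10). Progenitor-like cells, the group with the highest shares, had 86.6% with DHT and 89.6% with vehicle, monocyte-like cells 59.1% with DHT and 59.6% with vehicle, and immature neutrophil-like cells 31.7% with DHT and 36.5% with vehicle. In mature neutrophil-like cells, which serve as background, the share was 1.20% with DHT and 0.570% with vehicle, at median depths of 8378 and 6930 UMIs before thinning in the cells used. Without thinning, at the same share of UMIs, macrophage-like cells had 48.2% and 63.9%. The class is a range on a count: 26.3% and 29.3% of macrophage-like cells and 39.2% and 34.6% of osteoclast-like cells lay within 2 UMIs of the cut. Its shares are not shares of cells in S phase. Of progenitor-like S phase-high cells, 440 of 497 with DHT and 418 of 455 with vehicle were also high for the G2 and M phase genes scored below.

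The ratio of the summed level of the 35 genes in macrophage-like cells was 0.957 (0.945 to 0.968), below 1 like the share difference. S phase-high macrophage-like cells were deeper than the rest, with medians of 39318 UMIs against 27289 in the DHT library and 53014 against 47157 in the vehicle library. The part of depth in these values was not tested. With the mean of the cells' own CPM in place of the sum, the median log2 ratio of the members was −0.31 in place of −0.05, and 6 members were at least 1.5-fold lower (Gmnn, Rfc4, Rrm2, Tyms, Clspn and Blm). When the unnamed cluster 4, with Pf4 and Gpnmb, was joined to the group, the share difference was −8.61 percentage points, and with all variable genes in the clustering −8.52. At a cut of 10 or 12 UMIs it was −7.12 and −6.08, and with scanpy's phase call −4.12. It was below 0 in 16 of 17 alternatives, the exception being the count of S phase-high cells that were not G2 and M phase-high.

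**Figure D3:**
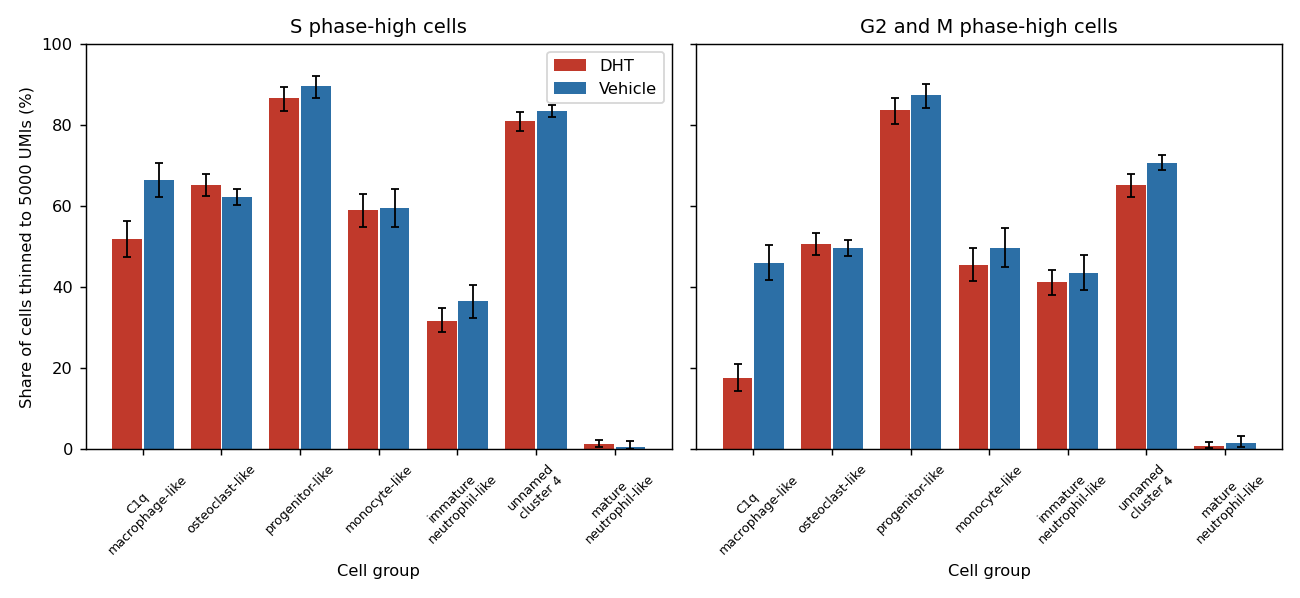
Share of cells called S phase-high (left) and G2 and M phase-high (right) after thinning to 5000 UMIs, by cell group, with DHT in red and vehicle in blue; bars of error are exact Clopper-Pearson intervals at 95%. Macrophage-like cells show 51.9% with DHT and 66.5% with vehicle on the left and 17.5% with DHT and 46.1% with vehicle on the right, while both libraries of mature neutrophil-like cells lie near 0.

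Cells were then also scored for 56 G2 and M phase genes, which include no member, with a cut of 20 UMIs set in the same way. G2 and M phase-high cells were 17.5% with DHT and 46.1% with vehicle of macrophage-like cells, a difference of −28.5 percentage points (−33.8 to −23). Over 12 alternative settings this difference ran from −30.8 to −12.0 percentage points. Osteoclast-like cells held 50.7% with DHT and 49.7% with vehicle. Crossing both scores showed where the macrophage-like cells differed. High for the S list only were 37.4% with DHT and 28.9% with vehicle, a difference of 8.56 percentage points (2.82 to 14.2) in the direction opposite to that of all S phase-high cells. High for both lists were 14.4% with DHT and 37.7% with vehicle, and high for neither 45% with DHT and 25% with vehicle. The DHT library thus held more macrophage-like cells with replication transcripts alone, fewer with replication and mitotic transcripts together, and more with neither. Osteoclast-like cells had 24.8% with DHT and 24.2% with vehicle in the first class and 40.4% with DHT and 38.1% with vehicle in the second. Progenitor-like cells had 9.93% with DHT and 7.28% with vehicle in the first and 76.7% with DHT and 82.3% with vehicle in the second, and monocyte-like cells 23.5% with DHT and 20.7% with vehicle and 35.6% with DHT and 39% with vehicle. Of immature neutrophil-like cells, 1.93% with DHT and 3.81% with vehicle were high for the S list only, 29.8% with DHT and 32.7% with vehicle for both and 56.9% with DHT and 52.6% with vehicle for neither.

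**Figure D4:**
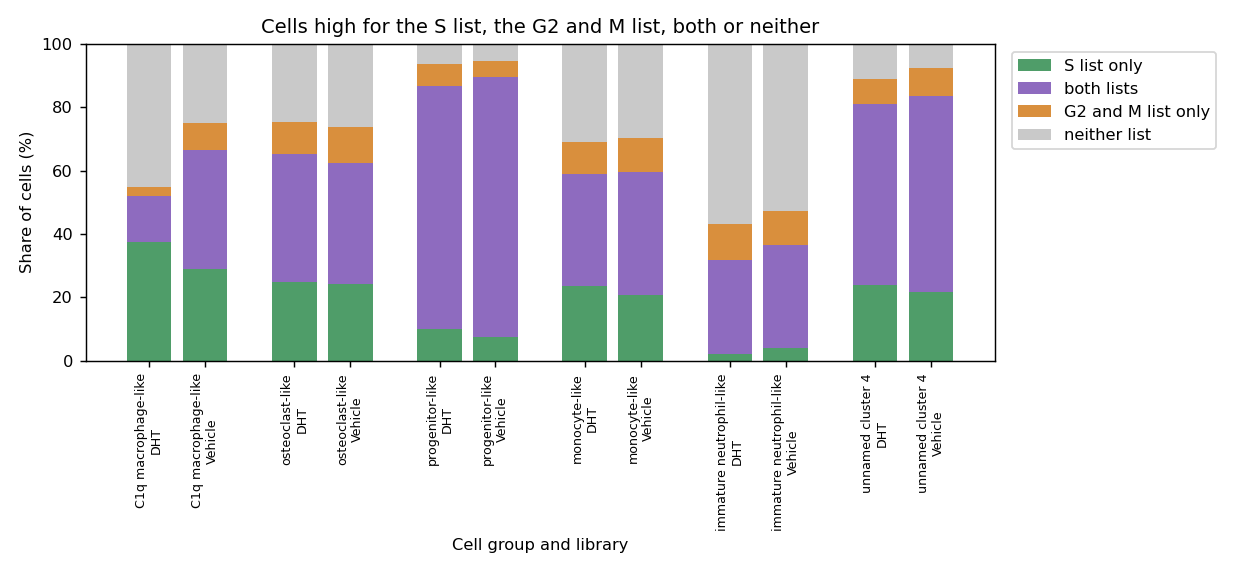
Stacked shares of thinned cells high for the S list only, for both lists, for the G2 and M list only or for neither, for each group and library. In macrophage-like cells the S-only class makes up 37.4% with DHT and 28.9% with vehicle and the class high for both 14.4% with DHT and 37.7% with vehicle; the paired bars of osteoclast-like cells are close to each other.

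The members were not alike in when they were high. For each gene, cells were placed by the other 34 members and the G2 and M list, and its level in cells high for both lists was divided by that in cells high for the S list only. Over the 10 combinations of group and library the median of this quotient was lowest for Ung (0.457), Dtl (0.512) and Cdc6 (0.631) and highest for E2f8 (1.82), Rrm2 (2.59) and Tyms (2.69). Cdc6 and Dtl, which act at origin loading and on Cdt1, thus lay at one end, and Rrm2 and Tyms, of deoxynucleotide supply, at the other. In vehicle osteoclast-like cells, for example, Dtl was at 74.2 CPM in cells high for the S list only and 40.3 CPM in those high for both, and Tyms at 44.8 and 61.6 CPM. Pcna, Mcm5 and Mcm7 were close to even, with 1.18, 1.03 and 1.09.

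This place in the cycle, taken only from vehicle cells of the 4 other groups, was set against the DHT over vehicle ratio in macrophage-like cells. Across the 32 members at 20 CPM, Spearman's rho was −0.70 and Pearson's r −0.76. Genes share cells and libraries and are not independent, so these are descriptions without a test. A summed level depends on the mix of cells, and macrophage-like cells high for both lists were 14.4% with DHT and 37.7% with vehicle. The relation is thus not independent of that difference in classes, and what it adds was not tested. Of the 14 members higher in cells high for both lists (late), 13 had a ratio below 1 and 1 (Mcm5) above, with a median log2 ratio of −0.29. Of the 18 others (early), 10 were above 1 and 8 below, with a median of 0.05. Over 15 alternative settings the early median ran from −0.21 to 0.09 and the late median from −0.52 to −0.04. The early median was below 0 with the mean of each cell's CPM, without the 10% highest doublet scores and at resolution 1.0. Tyms (quotient 2.32) and Rrm2 (2.65) lay at one end, and Cdc6 (0.493), Dtl (0.512), Chaf1b (0.685) and Mcm2 (0.709) at the other. Chaf1b went against the relation, with a log2 ratio of −0.09, as did Gins2 and Ccne1 among the early members, at −0.25 and −0.24. Computed alike, rho was −0.11 in osteoclast-like, −0.55 in progenitor-like, −0.52 in monocyte-like and −0.15 in immature neutrophil-like cells. In progenitor-like cells 18 of 19 early members and 8 of 15 late members were above 1, where 61.2% of all genes were. Over 15 alternative settings the macrophage rho ran from −0.70 to −0.23, weakest with all variable genes in the clustering. Among these settings, the limits of 5 and 50 CPM and the scalings by a single factor per library cannot change rho. Of the members with a promoter in the table, the 11 with an E2F-type match, as in the Dtl, Mcm6 and Cdc6 stretches above, had a median log2 ratio of 0.09 in macrophage-like cells and the 16 without one, as in Rfc4, Rrm2 and Tyms, −0.22. Clspn, with a match, was at −0.42. The order of these medians was the other way in immature neutrophil-like cells, at −0.14 with and −0.08 without a match, and in cluster 4, at 0.06 and 0.14. They were 0.12 and 0.05 in progenitor-like and 0.18 and 0.02 in monocyte-like cells. In osteoclast-like cells these medians were −0.08 and −0.07.

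**Figure D5:**
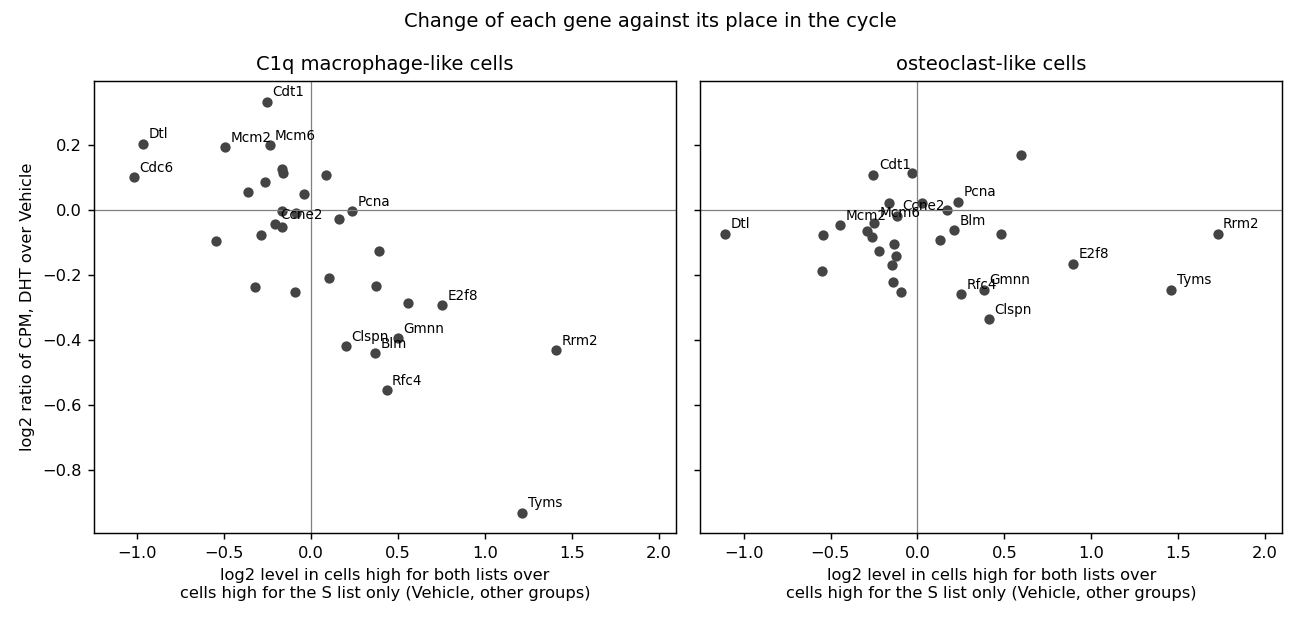
Log2 ratio of CPM, DHT over vehicle (vertical), of each member at 20 CPM against the log2 of its level in cells high for both lists over cells high for the S list only, from vehicle cells of the other groups (horizontal). Points fall from Cdc6 and Dtl at the upper left to Tyms at the lower right in macrophage-like cells (rho −0.70), and lie flat in osteoclast-like cells (rho −0.11).

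Among S phase-high cells alone, taken with the other 34 members and thinned counts, the contrast between members remained in macrophage-like cells. Cdt1 was at 123 CPM with DHT and 84 CPM with vehicle, a ratio of 1.46 (1.16 to 1.85), and Mcm6 at 211 and 154 CPM. Tyms was at 34 and 53.8 CPM, a ratio of 0.631 (0.432 to 0.911), and Clspn at 49.1 and 80.1 CPM. These values rest on few molecules, 45 and 92 Tyms UMIs for instance. In cells high for both lists, neither Tyms nor Rrm2 was below vehicle. Tyms was at 73 CPM with DHT (27 UMIs) and 70.4 CPM with vehicle (69 UMIs), and Rrm2 at 259 and 148 CPM (96 and 145 UMIs). In monocyte-like S phase-high cells Cdc6 was at 31.9 and 18.1 CPM, and in progenitor-like ones Dtl was at 69.6 and 45.3 CPM.

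Of 60 further replication genes, 49 reached 20 CPM in macrophage-like cells, 1 was higher and 4 were lower, with a median log2 ratio of −0.14. The lower ones were Ccna2, the cyclin of S phase and G2, at 45.4 and 87.4 CPM, Dbf4, the activator of the origin-firing kinase Cdc7, at 29.7 and 53.1 CPM, Dctpp1, which removes damaged dCTP, at 62 and 102 CPM, and Tk1, the thymidine kinase, at 48.5 and 77.7 CPM. The higher one was Dck, the deoxycytidine kinase of the salvage pathway, at 127 CPM with DHT and 63.7 CPM with vehicle. Dck was also at least 1.5-fold higher in monocyte-like cells, at 53.4 and 34.1 CPM, and in the unnamed cluster, at 74.9 and 39.7 CPM. E2f1, an activating E2F, was at 61.8 and 52.8 CPM in macrophage-like and 36.8 and 45.5 CPM in immature neutrophil-like cells. In osteoclast-like, progenitor-like and immature neutrophil-like cells 0 of 46, 0 of 54 and 0 of 44 of these genes passed 1.5-fold in either direction.

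Of the 56 G2 and M phase genes, 53 reached 20 CPM in macrophage-like cells, 42 were lower and 0 higher, with a median of −1.01. Mki67, a marker of dividing cells, was at 151 and 328 CPM, Top2a, the topoisomerase that untangles chromosomes, at 198 and 353 CPM, and Ccnb1, the mitotic cyclin, at 29.7 and 66 CPM. Cenpa, Cenpf, Cdc20 and Hmmr, all of mitotic chromosomes or the spindle, had the lowest ratios, with Cenpa at 34.3 and 106 CPM. This count depended on how the group was drawn: it was 10 with a mitochondrial limit of 20%, 16 at a limit of 5% or without doublet removal, and 0 with cluster 4 joined. All 12 histone genes with names that begin in Hist at 20 CPM, a list added after the clusters were seen, were lower in macrophage-like cells, and the summed level of all 67 genes of that list, the low ones included, was 468 and 1140.3 CPM. In osteoclast-like cells 1 of 13 histone genes was lower and all 13 had a ratio below 1, with 814 and 1053 CPM summed over the 67, while the G2 and M phase genes there had a median of 0.11. Of 19 G1 regulators and inhibitors, 14 reached 20 CPM in macrophage-like cells and 2, the kinase inhibitors Cdkn2d and Cdkn2c, were lower, at 23.2 and 48.5 CPM and 16.4 and 30.3 CPM. Cdkn1a, the inhibitor p21, was at 415 and 340.2 CPM in macrophage-like, 176 and 140.1 CPM in osteoclast-like and 371 and 249 CPM in cluster 4 cells. Cdkn1b was under 20 CPM in macrophage-like cells, at 12.3 and 12.1 CPM. In progenitor-like cells the G1 kinase Cdk6 was the 1 gene of this list past 1.5-fold, at 336 and 209.6 CPM, and in immature neutrophil-like cells Ccnd1 was, at 25 and 37.6 CPM. Immature neutrophil-like cells also held more osteoclast RNA in the vehicle library, with Acp5 at 31.7 and 76.6 CPM and Ctsk at 25.8 and 72.4 CPM. The part of such RNA in the Ccnd1 values was not tested.

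Interferon-induced genes also differed between the libraries, with 70 of 74 at least 1.5-fold higher in macrophage-like cells, and were set beside the S phase-high share cell by cell. Macrophage-like cells of the DHT library with an interferon count above their median had 38.4% S phase-high cells (32.4 to 44.7), and the others 65.1% (59 to 70.9). In the vehicle library these shares were 61.5% and 71%. G2 and M phase-high cells were 5.10% and 29.8% with DHT. Median depths of these macrophage-like subsets were 25910 and 44745 UMIs with DHT and 49898 and 53374 with vehicle. Monocyte-like cells had 45.6% and 72.1% for DHT, at 54495 and 80660 UMIs, and 43.5% and 73% for vehicle, at 48716 and 62100 UMIs. The shares were 79.8% and 92.3% with DHT and 84.3% and 94.1% with vehicle in progenitor-like cells, and 17.4% and 45.7% with DHT and 19.5% and 53% with vehicle in immature neutrophil-like cells. The latter group joins a dividing and a non-dividing cluster, and the gap was far narrower when each was split at its own median. The dividing cluster had 73.3% and 78.9% with DHT and 76.4% and 82.9% with vehicle. The non-dividing one had 1.40% and 1.34% with DHT and 0.699% and 2.47% with vehicle. Osteoclast-like cells had 68.2% and 62.4% with DHT and 61.9% and 62.7% with vehicle. The part of interferon genes or of depth in the shares was not tested.

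The unnamed cluster 4, with Pf4, Igf1, Gpnmb and macrophage markers, was joined to the macrophage-like cells in the alternative above and was also described on its own. Pf4 was at 816 and 560 CPM in it and 2983 and 1415 CPM in macrophage-like cells, and Igf1 at 157 and 138 against 566 and 455 CPM. Gpnmb was at 2406 and 2226 against 2052 and 2218 CPM, so these genes do not mark cluster 4 off from macrophage-like cells. In cluster 4 the members had a median log2 ratio of 0.09, and 0 of 33 were at least 1.5-fold higher or lower (all genes: 1.72% and 0.121%). Pcna was at 361 CPM with DHT and 299 CPM with vehicle, Ccne2 at 60.7 and 47 CPM, the highest ratio, and Tyms at 57.3 and 67.9 CPM, the lowest. Its cells were S phase-high in 81% with DHT and 83.5% with vehicle and G2 and M phase-high in 65.2% with DHT and 70.7% with vehicle. Of the osteoclast-like clusters, the one with less Acp5 had 69.7% with DHT and 67.4% with vehicle S phase-high cells and the one with more Acp5 50.7% with DHT and 44.6% with vehicle. So the osteoclast-like cells further along by Acp5 had the lower shares in both libraries, and in neither cluster was the DHT share below that of vehicle.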

How the data were processed

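The authors deposited 1 matrix of unnormalized UMI counts per library. Cell Ranger 7.0.1 wrote it, per the file headers. The submitters' processing notes list that version along with GRCh38 and mm10, giving neither build a role. How cells were called, and whether introns or strand entered the counts, was not given in the sources used here. Gene identifiers are those of mouse, and 32158 of 32285 (99.6%) matched GENCODE M21 (GRCm38, the assembly of mm10), which gave positions. Of the members, 10 overlap another listed gene, 9 of them on the opposite strand (Mcm7, Cdc45, Gins2, Rfc2, Rfc4, Fen1, Ccne2, E2f8 and Dscc1), so their counts are less certain.

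The members and the gene lists were chosen with earlier results of these data known. Barcodes with at least 300 genes, 800 UMIs and at most 10% mitochondrial UMIs were kept, and Scrublet doublets removed (203 and 174). Clustering used scanpy 1.11.5, 2000 variable genes without cell cycle, histone and interferon genes, 30 components, 15 neighbours and leidenalg 0.10.2 at resolution 0.6. The removal of histone genes and the rule that clusters with a median under 2000 UMIs have no name were chosen after clusters were seen. Cells of such low depth, 1013 with DHT (13.1% of the cells kept) and 422 with vehicle (4.92%), were outside the comparisons of groups. They held macrophage RNA, with C1qa at 142 and 40.3 CPM and Pf4 at 2008 and 555 CPM, so macrophage-like cells may have been left out unequally. To be named X-like, a cluster needed more of X's markers than of any other list in its 10 leading genes, and at least 3 markers, 50% of the list or more, past 2-fold. Counts were summed per group and library and scaled to CPM. Ratios have exact conditional binomial, levels exact Poisson, shares exact Clopper-Pearson and share differences Newcombe intervals. Named genes are members past 1.5-fold, the highest and lowest of each group, the 3 with most UMIs, and genes fixed by name, Rfc4, Blm, Clspn, Dtl and others outside that rule being chosen after their values were seen. Macrophage-like counts were simulated with counting error only and 200 changed genes, some by 2-fold and the others by less than 1.5-fold. Of those changed 2-fold 100% passed 1.5-fold, as did 0% of the others and 0% of 6248 unchanged genes. The simulation held no difference between libraries, so it does not give the rate of false calls in these data.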

Additional observations from a re-analysis of the deposited data

Results flagged for a closer look

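The share of S phase-high cells differed between DHT and vehicle in opposite directions in 2 groups of cells, by −14.7 percentage points in macrophage-like cells and by 2.91 percentage points in osteoclast-like cells. With 1 library per group the difference between the groups of cells was not tested, and the osteoclast-like value has an interval that includes 0.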

How the results depend on the processing

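The count of members at least 1.5-fold lower in macrophage-like cells, 1 in the report, was 6 with the mean of each cell's CPM, 4 at resolution 1.0, 3 without the 10% of cells with the highest doublet scores, 2 (Rfc4 and Tyms) after subtraction of free RNA, and 0 at mitochondrial limits of 5% or 20%, with at least 1000 genes and 2000 UMIs, without doublet removal, with all variable genes, with cells assigned by marker UMIs, and with cluster 4 joined. In progenitor-like cells 1 member (Ccne2) was higher with at least 1000 genes and 2000 UMIs and with all variable genes, and 2 (Cdc6 and Ccne2) at resolution 0.3. The S phase-high difference in macrophage-like cells was −7.12 percentage points at a cut of 10 UMIs, −6.08 at 12, −4.12 with scanpy's phase, −8.52 with all variable genes, −8.61 with cluster 4 joined, and reversed to 8.56 when G2 and M phase-high cells were left out. In osteoclast-like cells it was −3.27, −4.54, −3.09 and −0.710 under the first 4 of these, so no direction holds there. In progenitor-like cells it was 2.89 at 2500 UMIs, 3.12 and 4.57 at cuts of 10 and 12, 2.27 with scanpy's phase and 2.65 without G2 and M phase-high cells. The causes were not tested. The cut of 12 and the joined cluster were chosen after seeing the data. The macrophage-like group was not found at resolution 0.3, so no value was had there. Tyms was below vehicle in all 5 groups under all 15 alternatives to its level, of which the limits of 5 and 50 CPM cannot move its ratio. No paired analysis was possible because each group has 1 sample.

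The limits are 1 library per group from 1 mouse, cell groups rebuilt from markers, and a cycle position read from RNA. A difference between the libraries and one between the treatments cannot be told apart. In macrophage-like cells members under 20 CPM, and cells near the S cut, are set by few UMIs.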

Other observations

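B cell-like cells were outside the comparisons, with 340 DHT and 113 vehicle cells. Their S phase-high share was 11.7% of 274 thinned DHT cells (interval 8.13 to 16.1) and 4.76% of 42 vehicle cells (0.582 to 16.2). Over all cells, without regard to group, the members' summed level was 2283 CPM with DHT and 2290.2 CPM with vehicle, while the S phase-high share was 52.9% with DHT and 65.6% with vehicle, in libraries whose groups of cells differed in size.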
